A study of Mus musculus with 2 samples.

Results

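Interferon regulatory factors (IRFs) are transcription factors that bind interferon-stimulated response elements and set how cells answer interferons and pathogens, and several of them steer blood cell differentiation. IRF2 is best known as a repressor that competes with IRF1 for the same elements. The IRF2-binding proteins IRF2BP1 and IRF2BP2 were identified as corepressors that bind IRF2, and IRF2BPL is their relative. Here the binding of HLF (hepatic leukemia factor), a PAR bZIP transcription factor, is described around 10 mouse genes of these families, namely 7 IRF genes (Irf1, Irf2, Irf4, Irf5, Irf7, Irf8 and Irf9) and 3 cofactor genes (Irf2bp1, Irf2bp2 and Irf2bpl), out of 21523 protein-coding genes. The family was picked from the measured peaks, because Irf2bp2 has 4 of them nearby, so the counts below describe the set and no test was made on them.

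The peaks came from chromatin immunoprecipitation and sequencing (ChIP-seq) with an anti-FLAG antibody, which recovers DNA bound by a FLAG-tagged protein. The study holds 2 libraries from C57BL/6 Lin-Sca-1+c-Kit+ cells (abbreviated KSL, a marker set enriched for blood stem and progenitor cells) of mice aged 8 to 10 weeks, with the tissue given as blood. One library came from cells infected with the MigR1 retrovirus carrying 3xFLAG-HLF/HLF (n = 1), and the other from cells infected with MigR1 empty vector (n = 1). Both cultures ran for 5 days, and the medium held 4 cytokines, namely 5 ng/ml IL-3, 10 ng/ml Flt3L, 10 ng/ml IL-7 and 50 ng/ml SCF. HLF was thus delivered by a virus, and the antibody was directed at the tagged protein and not at the cells' own HLF. The empty-vector library was not analysed here, so no peak was set against it and background peaks could not be told apart. Cell identity could not be checked against marker expression, since the file lists peaks only. It holds 3153 intervals of 400 bp on the mm10 build, with no height, score or read count, so depth is unknown and no peak can be called stronger than another. With a single library there is no replicate error for any count.

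A peak centre lay in the body of a gene or within 20 kb of its ends for 4 of the 10 members (40% of them, against 15.3% of all protein-coding genes). These 4 were all 3 cofactor genes and Irf2. Irf2bp2 had 4 such peaks, Irf2 had 3, and Irf2bp1 and Irf2bpl had 1 each. The other 6 IRF genes (Irf1, Irf4, Irf5, Irf7, Irf8 and Irf9) had none, as did 18229 of the 21523 protein-coding genes. All 3 cofactor genes thus met the rule, and 1 of the 7 IRF genes did. For the IRF genes that is close to the 15.3% of all protein-coding genes. Because the members were chosen with these peaks in view, none of these shares was tested.

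**Figure D1:**
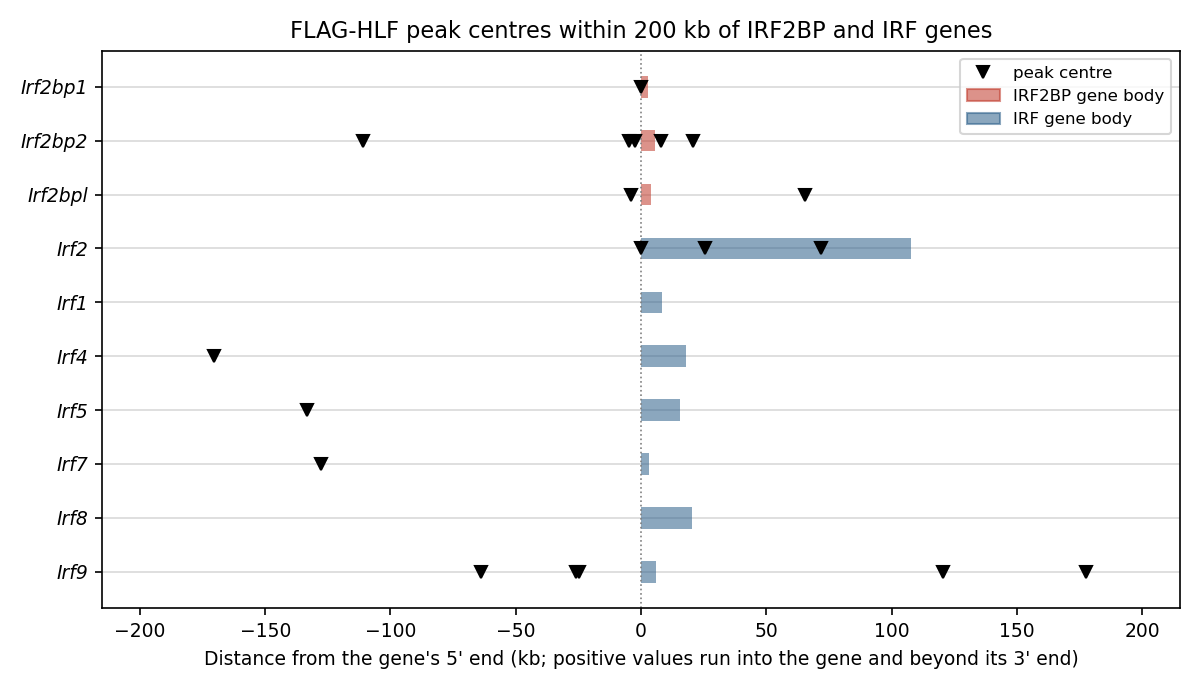
Peak centres (triangles) within 200 kb of each gene's ends, plotted as distance in kb from the gene's 5' end with all genes drawn left to right; bars are gene bodies. Peaks lie on both sides of Irf2bp2, along Irf2, and close to the 5' ends of Irf2bp1 and Irf2bpl. Irf9 has 5 within 200 kb, as many as Irf2bp2, and Irf1 and Irf8 have none.

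Peaks lay over the start sites of 2 members, Irf2bp1 and Irf2, whose promoter windows are therefore shown. Each window runs from 250 bases before to 50 bases after the annotated start, 5' to 3' on the gene's strand, from RefSeq on GRCm38.p6, which shares its chromosome coordinates with mm10. Capitals mark TTATGTAA in the Irf2bp1 window, a PAR bZIP site variant, and GAAAATGAAA in the Irf2 window, a match to the response element bound by IRF proteins. Of the Irf2bp1 window, at chr7:19003808-19004107 on the plus strand, 265 bases lie inside the peak. Of the Irf2 window, at chr8:46739495-46739794 on the plus strand, 260 bases lie inside the peak.
Irf2bp1: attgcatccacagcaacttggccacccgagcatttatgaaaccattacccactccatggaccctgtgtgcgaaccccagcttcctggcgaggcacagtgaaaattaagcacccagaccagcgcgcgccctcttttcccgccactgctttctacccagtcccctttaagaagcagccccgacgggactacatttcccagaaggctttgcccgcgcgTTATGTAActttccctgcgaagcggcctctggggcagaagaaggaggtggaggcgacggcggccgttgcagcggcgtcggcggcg
Irf2: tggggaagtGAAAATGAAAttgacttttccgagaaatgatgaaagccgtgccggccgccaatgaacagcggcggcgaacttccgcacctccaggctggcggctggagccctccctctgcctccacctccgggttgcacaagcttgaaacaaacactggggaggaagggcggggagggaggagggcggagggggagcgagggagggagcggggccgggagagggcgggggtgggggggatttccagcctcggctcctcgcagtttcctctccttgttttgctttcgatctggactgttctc

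Irf2bp1 (gene ID 272359; chromosome 7, 19004058 to 19006763, plus strand) had the peak nearest to a start site. It spans 19003843 to 19004242 and is centred 16 bp upstream of the start. The TTATGTAA shown in capitals covers 19004023 to 19004030, inside the peak, and its middle is about 16 bp from the peak's centre and its first base 35 bp upstream of the start. On either strand these letters occur in 0.938% of the 32851 promoter windows of the genome, and in 7.6% of the 171 windows that a peak overlaps over at least 150 bases. The Irf2bp1 window is itself among those 171. TTATGTAA was not a planned motif and was added after the planned ones had been searched. The match is a description of the letters and does not show that HLF contacted them. This locus is gene-dense, with 11 other protein-coding genes within 100 kb of Irf2bp1. The same peak lay within 20 kb of 3 of them (Nanos2, Mypop and Foxa3), the nearest being Mypop at 2.276 kb.

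Irf2 (gene ID 16363; chromosome 8, 46739745 to 46847458, plus strand) had 3 peaks, 1 at its start and 2 in its body, and was the only member with a peak centre inside the gene. The first, at 46739355 to 46739754, was centred 191 bp upstream of the start. It lay still nearer, at 39 bp, to the start of the long noncoding gene Gm16675, which is annotated on the opposite strand, so that the peak covers the start regions of both. The response element letters in capitals, GAAANNGAAA on either strand, cover 46739504 to 46739513 within this peak, with their middle about 46 bp from its centre. Such a match is in 3.44% of all promoter windows and in 4.68% of those overlapped by a peak. Both body peaks, at 46764921 to 46765320 and 46811293 to 46811692, were centred 25.4 and 71.7 kb downstream of the start, or 23.6% and 66.6% of the way along the gene. The gene table gives no exons, so they could not be placed in an exon or an intron. None of the 3 peaks was counted for another protein-coding gene by the 20 kb rule.

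Irf2 is long, at 107.7 kb against a median of 17.4 kb for protein-coding genes, which gives it a larger target for a count of this kind. Of all protein-coding genes, 0.488% had 3 or more peaks by the 20 kb rule. Among the 2212 genes at least as long as Irf2 that share was 2.26%. A start within 1 kb of a peak centre was found for 2 members, Irf2bp1 and Irf2, against 1.74% of the 17274 protein-coding genes with a promoter window.

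Irf2bp2 (gene ID 270110; chromosome 8, 126588296 to 126593986, minus strand) had the most peaks of the set, and all 4 lay outside the gene. On the 5' side, peaks at 126596244 to 126596643 and 126598482 to 126598881 were centred 2.457 and 4.695 kb upstream of the start. On the 3' side, peaks at 126585702 to 126586101 and 126573038 to 126573437 were centred 2.395 and 15.06 kb beyond the gene's end. The inner pair thus flanked the gene at nearly the same distance. Neighbouring centres were 12.66, 10.54 and 2.238 kb apart, and the 4 spanned 25.44 kb. Over the whole list, 21.3% of peaks had another centre within 25 kb.

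No other protein-coding gene lay within 100 kb of Irf2bp2, as for 4.71% of protein-coding genes. Tarbp1, the nearest to any of these peaks after Irf2bp2 itself, was at least 98.1 kb from each of them. Noncoding genes were closer. Gm31546 ended 275 bp from the centre of the inner 5' peak, and Gm39286 lay 1.312 kb from that of the outer 3' peak. When each peak was given to the nearest gene of any type, Irf2bp2 kept 1 of its 4. The next peak on its 5' side was 110.9 kb away, just beyond the 100 kb limit.

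**Figure D2:**
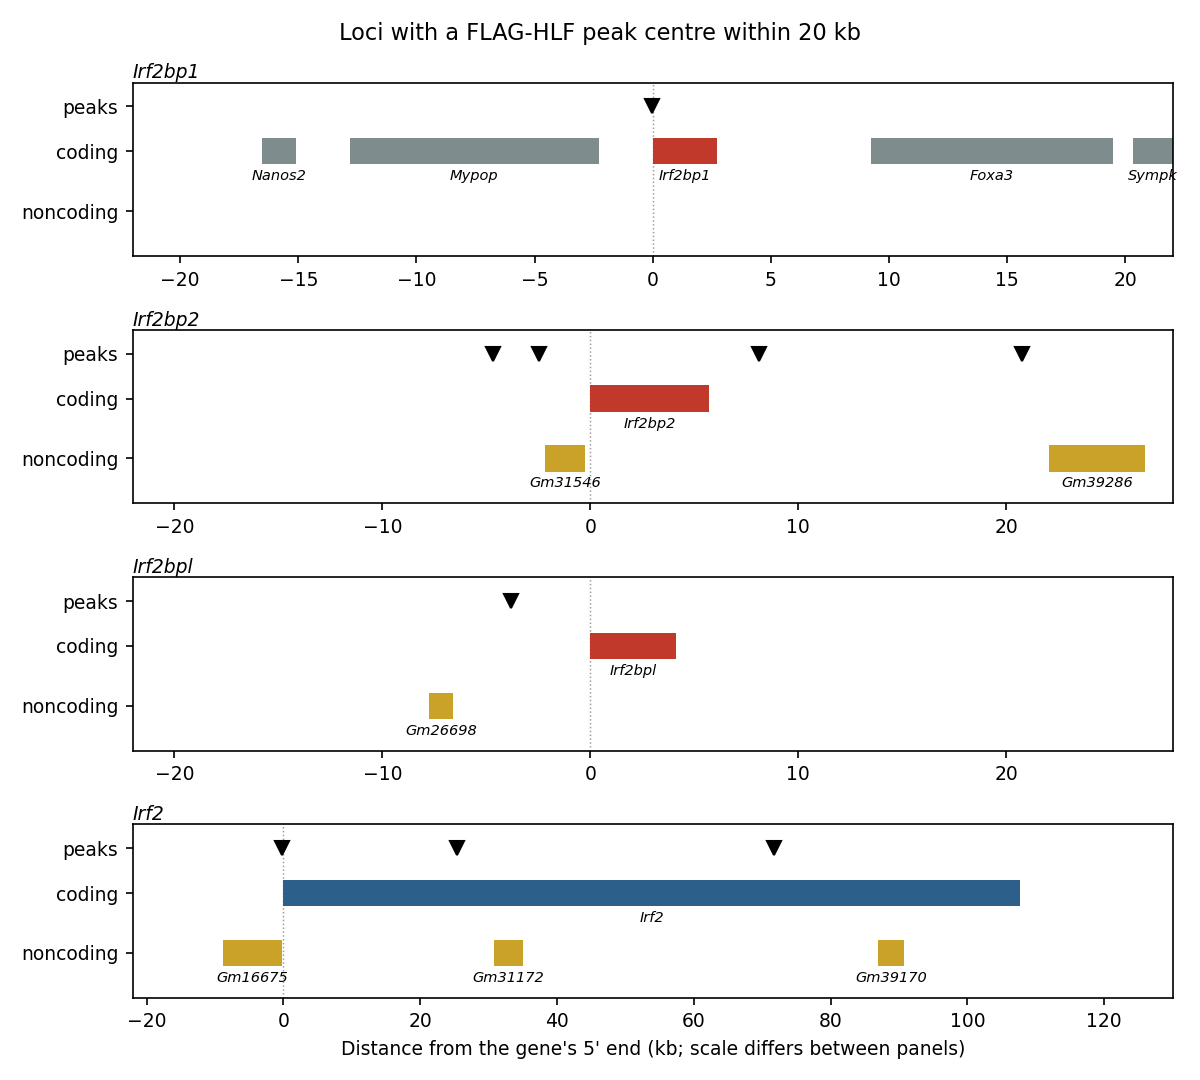
The 4 loci with a peak centre within 20 kb, drawn from the 5' end of each gene in kb (scales differ). Triangles are peak centres, red and blue bars the named members, grey bars other protein-coding genes and yellow bars noncoding genes; the 4 peaks at Irf2bp2 flank the gene on both sides, while Irf2 holds 2 inside.

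A total of 17 protein-coding genes, 0.079% of all, reached 4 or more peaks by the 20 kb rule. Irf2bp2 was chosen for this count. The genes with exactly 4 such peaks can be ordered by how tightly the peaks lie. The span of the centres was 4.471 kb at Trib1, 25.44 kb at Irf2bp2 and 35.4 kb at Cdc27. It was 39.8 kb at Strn3, 46.8 kb at Furin, 47.3 kb at Lcp1 and 86.5 kb at Pkd2l1. Furin and Irf2bp2 had all 4 outside the body, and the other 5 of these genes had between 1 and 4 inside.

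**Figure D3:**
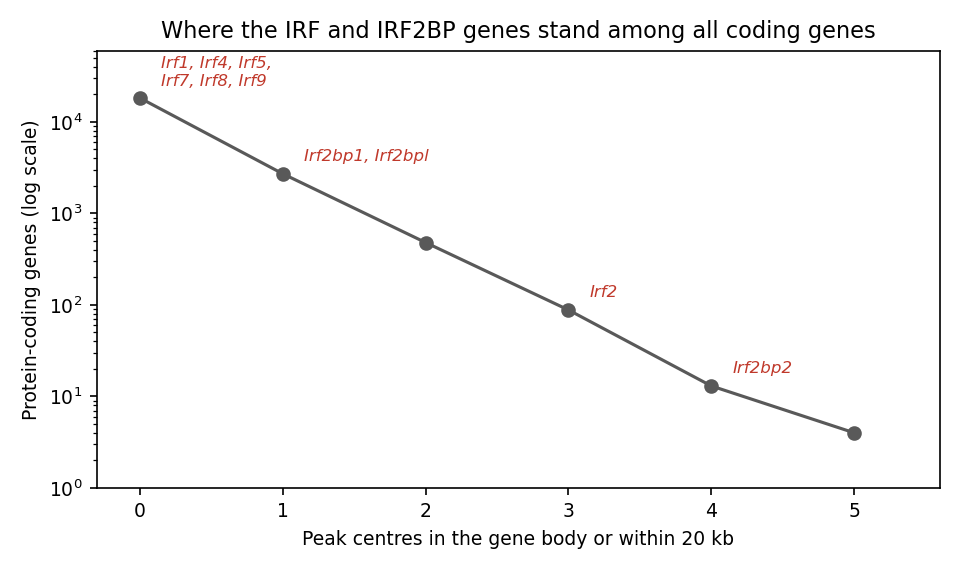
Number of protein-coding genes (vertical axis, log scale) with each number of peak centres in the body or within 20 kb (horizontal axis); names mark the IRF and IRF2BP genes. Irf2bp2 is among 13 genes with 4 peaks and Irf2 among 88 with 3, while 18229 genes have 0, as do 6 of the IRF genes.

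Irf2bpl (gene ID 238330; chromosome 12, 86880703 to 86884814, minus strand) had 1 peak within 20 kb, at 86888433 to 86888832, centred 3.818 kb upstream of its start. No other protein-coding gene had this peak within 20 kb, and Cipc, a negative regulator of the circadian clock, was the next nearest at 56.1 kb. The noncoding gene Gm26698 was closer to it than Irf2bpl, at 2.768 kb. A further peak lay 61.4 kb beyond the 3' end, nearer to Lrrc74a (50.2 kb). All 3 cofactor genes therefore had a peak centre on the 5' side, at 16 bp, 2.457 kb and 3.818 kb from the start for Irf2bp1, Irf2bp2 and Irf2bpl in that order. This was not particular to them. Irf2 also had a centre on that side, at 191 bp, and the nearest centres of Irf4, Irf5, Irf7 and Irf9 were on the 5' side as well. At Irf2bp2 the nearest centre, at 2.395 kb, was on the 3' side. The share of 5' side peaks over all protein-coding genes was not computed. The promoter windows of Irf2bp2 and Irf2bpl were not overlapped by a peak.

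Among the other IRF genes, Irf9 came closest to a peak. IRF9 is the DNA-binding part of a complex with STAT proteins that forms after type I interferon. Irf9 (gene ID 16391; chromosome 14, 55603985 to 55610030, plus strand) had its nearest centre 24.9 kb upstream, just outside the 20 kb limit, with others at 25.9 and 63.8 kb. All 3 lay nearer to other genes of a dense region, in which 19 other protein-coding genes were within 100 kb of Irf9. The nearest was inside Psme1, the second 455 bp from it, and the third 127 bp from Pck2. Psme1 encodes an interferon-inducible proteasome activator subunit, and Pck2 a mitochondrial gluconeogenic enzyme. At Irf2bp2, the farthest peak inside the 20 kb limit was at 15.06 kb.

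Irf7, the main amplifier of type I interferon production, had its nearest centre at 127.9 kb, inside Taldo1. Irf5, which drives inflammatory cytokine genes, had its nearest at 133.4 kb, next to Ccdc136. Irf4, a factor of B and T cell differentiation, had its nearest at 170.3 kb. Irf1, the activator that IRF2 opposes, had none within 200 kb and its nearest at 218 kb. Irf8, required for monocyte and dendritic cell development, lay farthest, with its nearest centre 813.9 kb away. Of all protein-coding genes, 18.3% lay farther still from a peak, and 47.4% had none within 200 kb. The absence of a listed peak does not show absence of binding, since the depth and the threshold of the list are unknown.

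With the wider limit of 100 kb, 5 members had a peak, the 4 already named and Irf9 (50%, against 36.9% of protein-coding genes), which is close to the background. In the gene body, 1 member had a peak (10%, against 6.94%). The nearest centre was a median of 76.4 kb from the members' bodies and 178.8 kb from those of all protein-coding genes. For the IRF genes without the cofactor genes the median was 133.4 kb. In the plot of distances the ratio of the shares is highest at 5 kb, within which 4 of 10 members had a centre against 9.58% of all genes. Nothing is read from this, since these peaks were known when the 10 genes were picked.

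**Figure D4:**
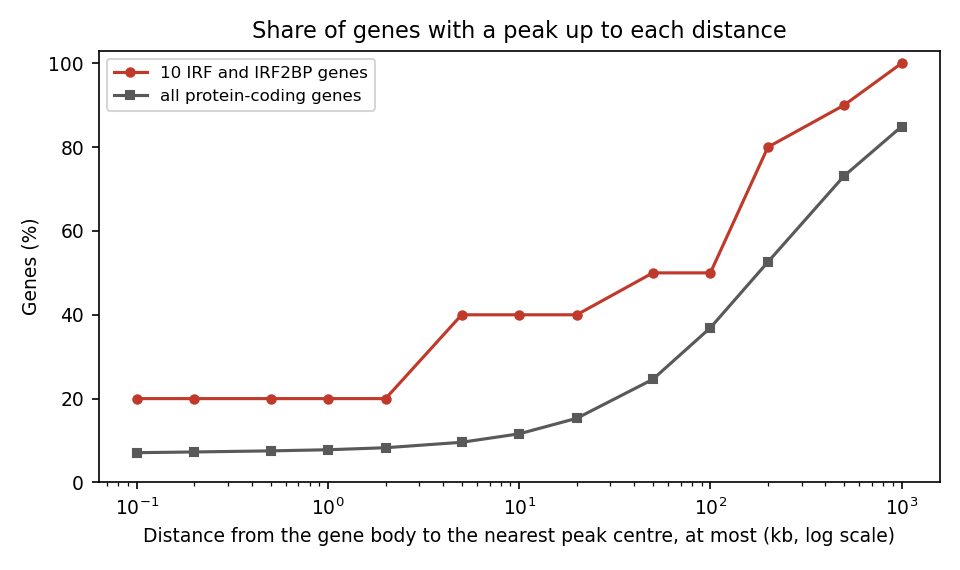
Percentage of genes (vertical axis) whose body is at most the given distance in kb (horizontal axis, log scale) from a peak centre, for the 10 IRF and IRF2BP genes and for all protein-coding genes. At 5 kb the lines stand at 40% and 9.58%, and at 100 kb at 50% and 36.9%.

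Altogether 9 peaks lay in or within 20 kb of a member, 7 of them on chromosome 8, which carries Irf2, Irf8 and Irf2bp2 and 142 peaks in all. For all 9 the member was the nearest protein-coding gene, and 8 were counted for no other protein-coding gene by the 20 kb rule. The exception was the Irf2bp1 peak. For 4 of the 9 the member was also the nearest gene of any type.

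The promoter windows of the members were searched on both strands for TTACGTAA, TTNCGNAA, TTACGCAA and TTACG, of which TTNCGNAA takes in TTACGTAA and TTACGCAA, and TTACG is a part of both. No member window held TTACGTAA, TTNCGNAA or TTACGCAA, and 1, at Irf9, held TTACG with no peak over it. These letters occur in 0.119%, 2.47%, 0.167% and 8.88% of all promoter windows in the order named. In windows overlapped by a peak over at least 150 bases the shares were 0.585%, 13.5%, 6.43% and 22.8%. TTATGTAA and TTATGCAA were added after that search. TTATGCAA is in 0.743% of all windows, in 8.77% of overlapped ones and in no member window. The remaining parts of the members' peaks, and all of the other 7, fall outside these windows and were not searched. All 3 cofactor genes have GC-rich windows, at 60%, 71.7% and 69% for Irf2bp1, Irf2bp2 and Irf2bpl, and that of Irf2 has 62.7%, against a median of 52.7% over all windows. The median of windows overlapped by a peak over at least 150 bases was 57%. High GC was not limited to members with peaks. The Irf1 windows had 69.3% and 75%, that of Irf5 74.7%, 1 of the Irf8 windows 70% and that of Irf4 61%. The windows of Irf7 and Irf9 and the other Irf8 window were lower, at 52.7% to 55.3%.

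Genes that act with the IRFs were described from 4 lists and read against the same 15.3%. Of 11 interferon receptor and signalling genes, 5 met the 20 kb rule, a share of 45.5%. Ifngr1, a chain of the interferon gamma receptor, had 3, at 0.429, 3.444 and 4.351 kb outside the gene. Jak2 and Tyk2, kinases bound to these receptors, each had 1 in the body. Ifnar1 and Ifnar2, the chains of the type I receptor, each had 1, at 12.2 and 18.0 kb. Stat2, a partner of IRF9, had none by this rule, with its nearest centre at 206.5 kb.

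Of 14 activators upstream of the IRFs, 2 had a peak, a share of 14.3%. These were Traf3, a signalling adaptor, with 1 in the body, and Mavs, the mitochondrial adaptor of RNA sensing, at 16.5 kb, where the peak lies inside Pank2. Of 10 DNA-binding partners, 2 had a peak (20%). Spi1, which encodes the IRF4 and IRF8 partner PU.1, had 1 in the body and 1 at 16.5 kb inside Mybpc3, and Spib, its relative, had 1 at 17.0 kb. Of 18 interferon-stimulated genes matched as protein-coding, 2 had a peak (11.1%). These were Rsad2, an antiviral enzyme gene, with peaks at 3.857 and 10.36 kb, and Cxcl10, a chemokine gene, at 9.367 and 19.7 kb, with 1 of these inside Art3. At 20 kb these 3 lists stood near the background. At 100 kb the shares were 63.6% for receptor and signalling genes, 57.1% for activators, 80% for partners and 38.9% for interferon-stimulated genes, against 36.9% of protein-coding genes. The lists hold 10 to 18 genes each and none of these shares was tested.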

How the data were processed

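The authors deposited, for the FLAG-HLF library, a list of peak intervals (chromosome, start and end in bp) with no header. The submitters' processing notes list MACS2 2.0.10, Bowtie2 2.0.6 and mm10, without their roles. How peaks were thresholded, whether the control library entered the calling and how all peaks came to be 400 bp wide is not given in the sources used here. Fixed widths hide how far each enriched region reached.

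The centre of a peak was its start plus 200 bp. Genes came from a RefSeq table of GRCm38.p6 (49214 of 49997 rows used, leaving out rows on other sequences or starting below 3 Mb, which carry scaffold coordinates). Strands and starts came from the RefSeq promoter windows. Counts used Python 3.11.15, numpy 2.4.6 and pandas 2.3.3, checked on synthetic peaks at set distances. Windows of 5 to 200 kb, interval overlap, merged peaks and nearest-gene rules were tried as alternatives. All 10 members are named, as is every gene of the 4 context lists (53 matched, 1 by an older symbol) within 20 kb of a peak, and the genes with as many peaks as Irf2bp2 that have the smallest span. Members and lists were chosen with earlier results of these data known. No test was made. Some items are not reported here.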

Additional observations from a re-analysis of the deposited data

How the results depend on the processing

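The member count at 20 kb stayed within 1.5 times its value of 4 under all alternatives tried. By any overlap of the 400 bp interval, 2 members in place of 1 had a peak in the body, the added one being Irf2bp1, whose interval reaches past the start. Giving each peak only to the nearest gene of any type left 3 of 5 members at 100 kb, 4 of 9 peaks at 20 kb and 4 of 13 at 100 kb. The nearest protein-coding gene alone left 4 members and 9 peaks at 100 kb, so coding and noncoding neighbours both take peaks, and those of Irf9 go to protein-coding genes. A window of 200 kb in place of 100 kb gave 8 members (80%, against 52.6% of protein-coding genes). Irf2bp2 went from 4 peaks to 1 when peaks within 25 kb were merged. Irf2bpl had 0 and Irf2bp2 had 1 under the rule of the nearest gene of any type, and Irf9 had 0 of 3 at 100 kb under either nearest-gene rule. Settings for the context lists were chosen after seeing the data. With 5 kb, 3 receptor and signalling genes and 1 gene in each other list had a peak. With 100 kb, 7 receptor and signalling genes, 8 activators, 8 partners and 7 interferon-stimulated genes had one, where 36.9% of protein-coding genes did. By the nearest protein-coding gene, 5 receptor and signalling genes and 1 gene in each of the other 3 lists remained near a peak. Of 188 alternative values, 159 stayed within 1.5 times the value reported. The list has no score, so the stricter peak threshold was not run. Depth is unknown, which limits what the absence of a peak shows. No paired analysis was possible because 1 library was analysed.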
